A study of Mus musculus with 2 samples.

Results

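The 10 genes described here encode chloride channels, cation-chloride cotransporters and a kinase that controls the cotransporters: Ano1, Ano6, Clcn3, Clic4, Lrrc8a, Best3, Slc12a2, Slc12a4, Slc12a7 and Wnk1. They were found by matching these symbols to the Ensembl identifiers of the deposited gene tables, and each matched 1 of the 55573 listed genes. Of the 10 genes, 9 had at least 10 reads in both libraries together, as did 14829 of all listed genes. Best3 was the exception.

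RNA-seq was done on mesenteric arteries, the small arteries that supply the intestine, from wild type C57BL/6 mice 10 weeks old. The control library (5K) was made from vessels kept in 5 mM K+, and the depolarized library (60K) from vessels in 60 mM K+, with 60 min given for both. The study's methods say that tetrodotoxin, a blocker of nerve sodium channels, was in the solutions. Their supplement says that control tissue was the distal side of the arteries, harvested after incubation without perfusion. The remaining tissue was then perfused with 60 mM K+ solution, which held less NaCl. The main text instead describes perfusion with either solution. By the supplement, time in solution, flow, part of the vessels, sodium and K+ cannot be told apart. Each library pooled tissue from 2 mice, and with 1 library for each condition no difference has a replicate check. Hence no p-value is given, and the 95% counting intervals below cover counting error only. The gene counts summed to 10480918 reads for 5K and 11289598 for 60K.

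On mm9 (NCBIM37) with the GENCODE vM1 annotation, the channel genes are Ano1 (ENSMUSG00000031075) at chr7:151774454-151937879, Ano6 (ENSMUSG00000064210) at chr15:95621274-95805180, Clcn3 (ENSMUSG00000004319) at chr8:63389186-63462097, Clic4 (ENSMUSG00000037242) at chr4:134769884-134828729, Lrrc8a (ENSMUSG00000007476) at chr2:30093235-30137668 and Best3 (ENSMUSG00000020169) at chr10:116423370-116462096. The transporter and kinase genes are Slc12a2 (ENSMUSG00000024597), Slc12a4 (ENSMUSG00000017765) at chr8:108467490-108489974, Slc12a7 (ENSMUSG00000017756) at chr13:73870542-73954191 and Wnk1 (ENSMUSG00000045962) at chr6:119873987-119988690. The files hold 1 value for each gene, so isoforms were not told apart.

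Vascular smooth muscle cells accumulate chloride, so that opening a chloride channel lets chloride leave and depolarizes the cell. The Na-K-2Cl cotransporter NKCC1 brings chloride in with sodium and potassium, and the K-Cl cotransporters (KCCs) carry it out with potassium. WNK kinases act through the kinases SPAK and OSR1, which switch NKCC1 on and the KCCs off. Depolarization opens voltage-gated calcium channels, and the calcium that enters gates anoctamin 1, the calcium-activated chloride channel of these cells.

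The arteries carried the smooth muscle program in both libraries. All 10 smooth muscle markers on the list had at least 10 reads, and their summed FPKM (fragments per kilobase of transcript per 1000000 mapped fragments) was 20633 in the 5K library and 20133 in the 60K library. All 11 depolarization-response genes that the study names from these same libraries were more than 1 higher in log2(fold-change), with a median of 2.74. Because the study picked them on these libraries, their values here give no independent evidence of direction. The study also reports their induction by qPCR, a separate measurement that is not described here.

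By deposited FPKM, the level per length, the 10 genes spanned from barely detected to among the most abundant. Clic4, which encodes a protein of the chloride intracellular channel family that is abundant in endothelium, stood highest, at 259 FPKM in the 5K library and 313 in the 60K library. That put it above 97.5% and 97.7% of the genes with at least 10 reads. Ano6, a calcium-activated phospholipid scramblase and ion channel, followed at 83.5 and 66.4 FPKM. Slc12a4, which encodes KCC1, was at 76.0 and 59.1 FPKM. Wnk1 was at 68.9 and 57.7 FPKM. Within each library the order was Ano6, Slc12a4 and Wnk1. The ranges of these 3 genes over the 2 libraries overlapped, and the order has no replicate check.

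Below them came Slc12a7, which encodes KCC4, at 32.1 FPKM in the 5K library and 26.8 in the 60K library. Lrrc8a, the subunit that every volume-regulated anion channel needs, was at 11.4 and 14.5 FPKM. Clcn3, a chloride-proton exchanger of endosomes, was at 7.98 and 6.45 FPKM. These 3 genes kept the order Slc12a7, Lrrc8a and Clcn3 in both libraries. Slc12a2, which encodes NKCC1, was at 5.20 and 4.09 FPKM, and Ano1, which encodes anoctamin 1, at 2.26 and 1.92 FPKM. Ano1 thus lay at percentile 24.7 of the measured genes in the 5K library and 25.6 in the 60K library.

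**Figure D1:**
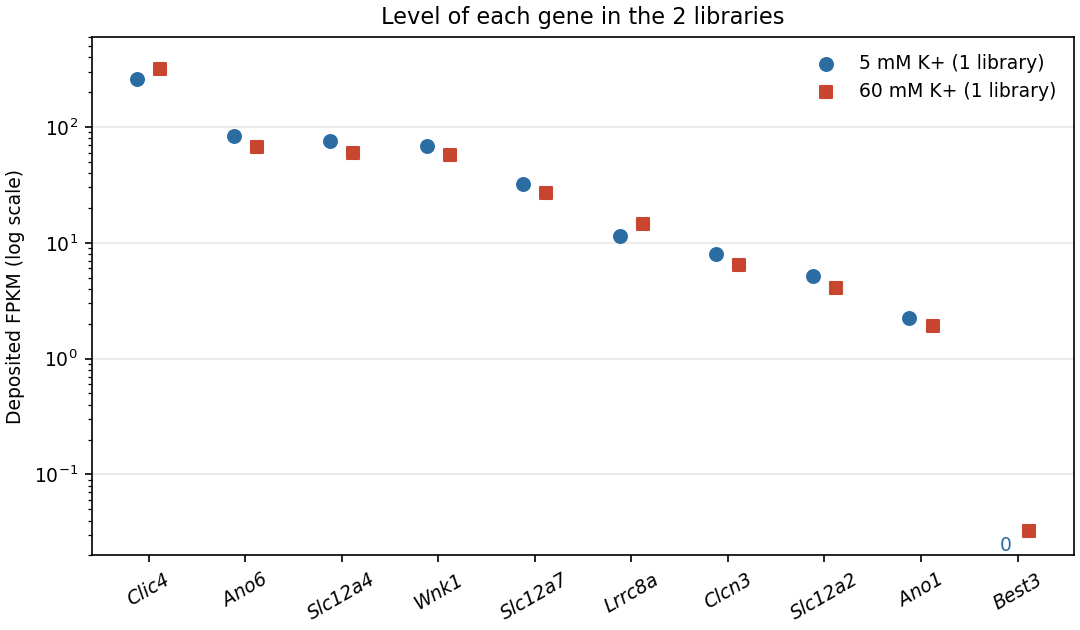
Deposited FPKM (vertical axis, log scale) of each of the 10 genes, with 1 point for the 5K and 1 for the 60K library. Clic4 lies at the top at 259 and 313 FPKM, and Best3, at 0 and 0.0326 FPKM, at the bottom.

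The deposited FPKM of some genes rests on a short length. Dividing reads by FPKM gave the length used, which was within 1% of the mean length of the gene's annotated transcripts for 34.6% of 11496 genes with at least 20 reads in each library. For Wnk1 the length was 3186 bases, against 10575 for its longest transcript. Computed with the longest transcript instead, Wnk1 was at 20.8 and 17.4 FPKM in the 5K and 60K libraries, Ano6 at 44.0 and 35.0, Slc12a4 at 37.5 and 29.1 and Clic4 at 226 and 274. With that length Slc12a2, at 4.39 FPKM in the 5K library, passed Clcn3, at 4.32. Lrrc8a, at 14.2 FPKM in the 60K library, passed Slc12a7, at 12.4. Clic4, Ano6 and Slc12a4 kept the top places and Ano1 and Best3 the bottom ones.

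Between the libraries, the 9 genes differed little. The difference is given as log2(fold-change), the 60K over the 5K value of reads scaled by the trimmed mean of M-values (TMM). Of the 9 genes, 2 were higher and 7 lower in the 60K library, with a median of -0.05, against a median of -0.0047 over all genes with at least 10 reads. None of the 9 lay above 1, where 5.54% of all genes lay, and none below -1, where 5.86% lay. Above 0.5 lay 1 gene, Lrrc8a, against 14.8% of all genes, and below -0.5 lay none, against 15.9%. The counting interval lay above 0 for 2 genes, Clic4 and Lrrc8a, against 25.0% of all genes, and below 0 for 2 genes, Ano6 and Slc12a4, against 20.3%. These shares over all genes depend on depth, and 8 of the 9 genes, all but Ano1, had at least 500 reads. Among the 6549 genes with at least 500 reads, the median was 0.08, against -0.08 for the 8 genes. Of those 6549 genes, 3.24% lay above 1 and 0.122% below -1. In the same genes 12.4% lay above 0.5 and 3.18% below -0.5, and the interval lay above 0 for 41.4% and below 0 for 21.4%. Few genes at that depth were lower by these folds, so having none of the 8 there does not set them apart.

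**Figure D2:**
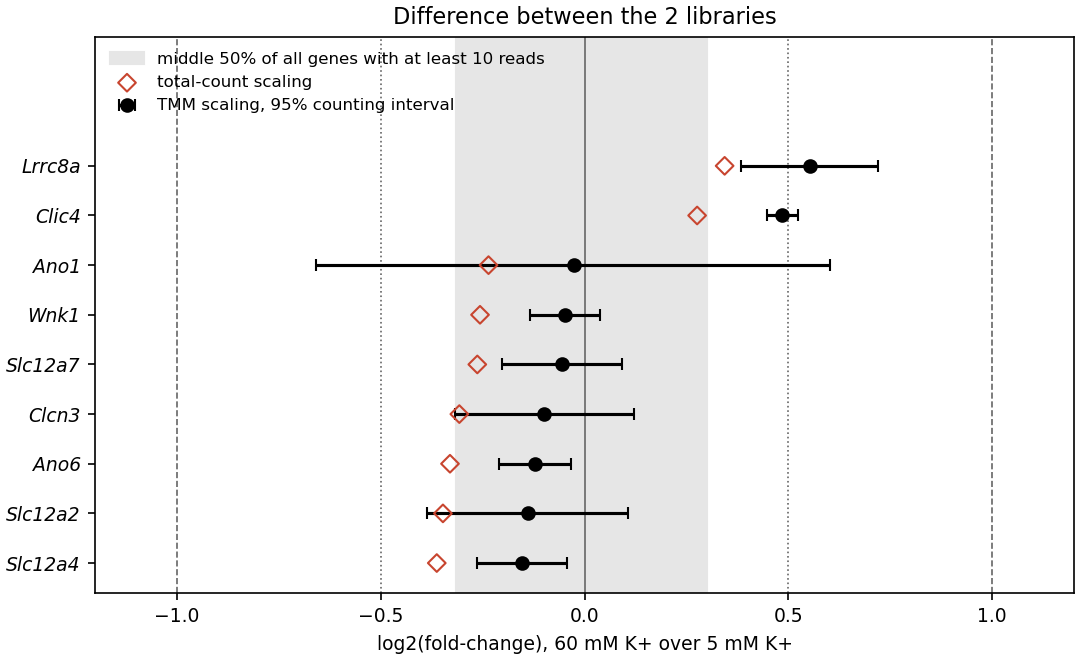
Difference between the 60K and 5K libraries as log2(fold-change) (horizontal axis) for the 9 genes with at least 10 reads, with the 95% counting interval after TMM scaling and an open diamond for total-count scaling. The grey band holds the middle 50% of all genes, from -0.32 to 0.30, and Lrrc8a and Clic4 lie to its right.

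**Figure D3:**
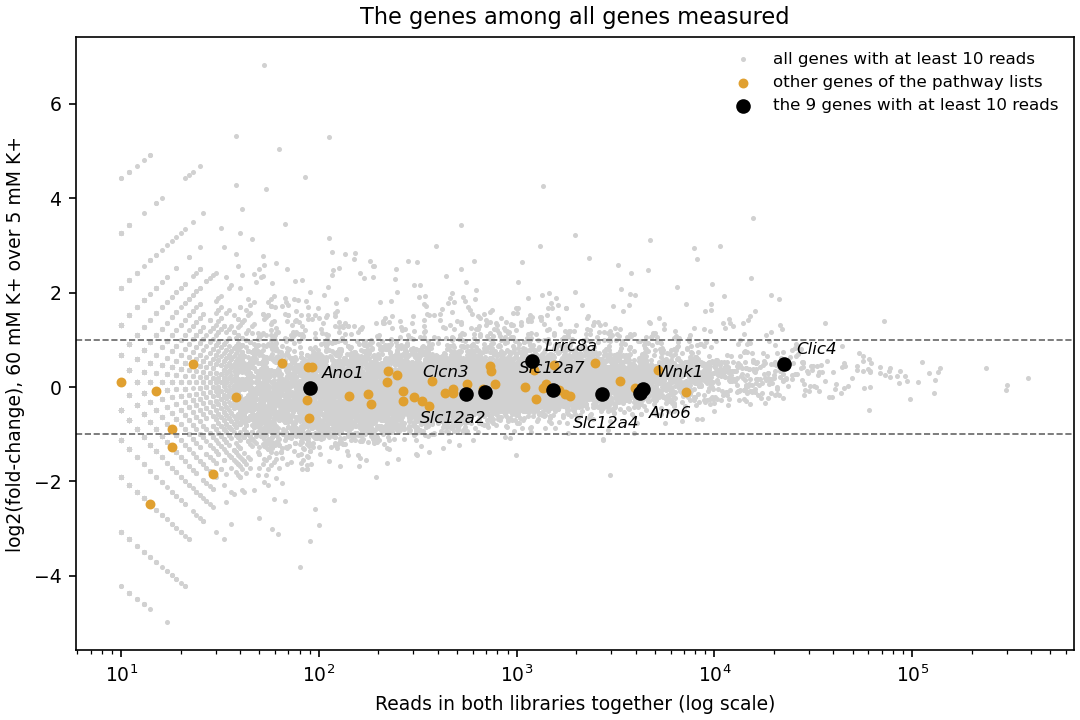
log2(fold-change) (vertical axis) against reads in both libraries together (horizontal axis, log scale) for all genes with at least 10 reads in grey, the other pathway genes in orange and the 9 genes in black. Dashed lines mark 1 and -1, and all 9 genes lie between them.

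Of the channels, Lrrc8a was the most different. It had 507 reads in the 5K library and 693 in the 60K library. Its log2(fold-change) was 0.55, with a counting interval of 0.38 to 0.72, at percentile 87.2 of all genes. Part of this count is uncertain, since 22.0% of its exonic bases are shared with Phyhd1, a gene on the same strand with 45 and 44 reads. Clic4 had 9773 and 12748 reads, or 0.48 (0.45 to 0.52) in log2(fold-change), at percentile 84.6. Endothelial markers were also higher on balance: 8 of 10 had an interval above 0, with a median of 0.32 after TMM scaling. Their summed FPKM, which is scaled by total counts, went from 1657 in the 5K library to 1948 in the 60K library. Cdh5, VE-cadherin, was at 0.83, while Kdr, the VEGF receptor 2, was at -1.10. The part of endothelial content in the values of Clic4 and Lrrc8a was not tested. In such bulk tissue, fewer cells of a type and less RNA per cell cannot be told apart.

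The promoters of these 2 genes are shown because they had the highest log2(fold-change) of the 9 genes. A stretch of Clcn3 that runs on from its RefSeq start is shown because it holds the same motif as Lrrc8a. The motif searched, on both strands, was the full cAMP response element TGACGTCA, the site bound by CREB, in windows from 250 bases before to 50 after each RefSeq gene start (GRCm38.p6 table), of which 8 of the 10 genes had at least 1. It was found in Lrrc8a and Clcn3 and in 1.79% of all 32851 windows. In Lrrc8a it began at position -108, before the RefSeq start, and in Clcn3 at position 11, after the start. The shorter TGACG, which is part of the full element, was in Lrrc8a, Clcn3 and Ano6 and in 20.8% of windows, and the AP-1 motif TGANTCA was in none of the 8 genes and in 7.81% of windows. A match is only a description of the letters, and its part in any of these values was not tested. The sequences below are RefSeq's, located by exact match on mm9 and read 5′ to 3′ on the gene's strand, with capitals marking TGACGTCA. They run over chr2:30093039-30093234 on the plus strand for Lrrc8a, chr4:134828730-134828925 on the minus strand for Clic4, and chr8:63462079-63462108 on the minus strand for Clcn3.
Lrrc8a: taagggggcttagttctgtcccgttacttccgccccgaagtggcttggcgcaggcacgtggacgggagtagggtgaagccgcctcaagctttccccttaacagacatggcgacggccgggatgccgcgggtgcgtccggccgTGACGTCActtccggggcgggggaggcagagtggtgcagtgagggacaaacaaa
Clic4: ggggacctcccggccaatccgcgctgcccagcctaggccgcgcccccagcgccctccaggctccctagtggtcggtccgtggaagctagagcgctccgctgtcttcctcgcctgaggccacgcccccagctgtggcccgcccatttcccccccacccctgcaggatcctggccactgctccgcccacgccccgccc
Clcn3: gtcaacgcgcTGACGTCAcgcgcgtgcgac

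The other channels had a log2(fold-change) at or slightly below 0. Ano6 had 2271 reads in the 5K library and 1946 in the 60K library, at -0.12 (-0.21 to -0.03). Clcn3 had 371 and 323 reads, at -0.10 (-0.32 to 0.12). Ano1 had 47 and 43 reads, at -0.03 (-0.66 to 0.60). At so few reads, a difference of Ano1 within that interval was not detectable. Best3, a bestrophin described in smooth muscle, had 0 and 1 reads. Its 0 reads in the 5K library allow a level of up to 0.266 reads per 1000000 (3 counts), and no fold is given because both libraries lie under that floor.

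The 3 cotransporters and Wnk1 all had a slightly negative log2(fold-change), and Slc12a4 alone had an interval below 0. Slc12a4 had 1474 reads in the 5K library and 1235 in the 60K library, at -0.15 (-0.26 to -0.04). Slc12a2 had 300 and 254 reads, at -0.14 (-0.39 to 0.11). Slc12a7 had 801 and 719 reads, at -0.05 (-0.20 to 0.09). Wnk1 had 2301 and 2075 reads, at -0.05 (-0.13 to 0.04). Fibroblast markers were also lower after TMM scaling, 9 of 10 with an interval below 0 and a median of -0.17. Their summed FPKM, which is scaled by total counts, went from 5625 in the 5K library to 4120 in the 60K library. The part of fibroblast content in the values of these 4 genes was not tested. For Slc12a4, 8.49% of exonic bases lie under Gm16156 on the other strand, which had 0 reads in both libraries, and Wnk1 shares 3.65% of its exonic bases with a pseudogene entry of the same name.

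Scaling sets the sign of none of the 9 genes but the size of all. With total-count scaling every log2(fold-change) is 0.21 lower, so Lrrc8a was at 0.34, Clic4 at 0.28 and Slc12a4 at -0.36, and 6 of the 9 genes had an interval below 0.

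Shares within a gene family do not depend on that scaling. Shares of reads are not corrected for gene length, while shares of FPKM are, so FPKM shares are added for several genes. NKCC1 held 10.2% (Clopper-Pearson interval 9.17 to 11.4) of the reads of NKCC1 and the KCCs in the 5K library and 10.1% (8.91 to 11.3) in the 60K library, and these intervals overlapped. Slc12a4 held 50.3% of those reads in the 5K library and 48.9% in the 60K library, and Slc12a7 27.4% and 28.5%. By FPKM, NKCC1 held 4.22% in the 5K library and 4.16% in the 60K library, Slc12a4 61.6% and 60.1%, and Slc12a7 26.1% and 27.2%. Among the anoctamins, Ano6 held 69.1% and 67.8% of reads, Ano10 21.6% and 22.5%. Ano1 held 1.43% of them in the 5K library (1.05 to 1.90), with an overlapping interval in the 60K library. Clic4 held 87.2% and 87.4% of the CLIC reads, Clic1 9.62% and 9.75%, again with overlapping intervals. By FPKM, Ano6 held 66.7% and 65.3% of the anoctamins. In the CLIC family Clic4 held 72.3% and 72.6% of FPKM, and Clic1 24.9% and 25.3%.

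In the LRRC8, CLC, WNK and CLIC families some intervals did not overlap between the libraries. How often this happens in other gene families was not computed, and the intervals cover counting error only. Over all genes with at least 500 reads, the interval of log2(fold-change) lay above 0 for 41.4% and below 0 for 21.4%. That is another measure and gives no share for family intervals that do not overlap. The values below are thus description only. Lrrc8a held 39.0% (36.3 to 41.7) of the LRRC8 reads in the 5K library and 44.3% (41.8 to 46.8) in the 60K library. Its partner subunit Lrrc8c held 42.7% and 42.3%, and Lrrc8d 10.9% and 7.99%, both with overlapping intervals. By FPKM, the scale per length, Lrrc8c led with 55.8% and 56.1% and Lrrc8a held 26.4% and 30.4%. In the CLC family Clcn3 held 16.2% and 15.0% of reads, but 9.20% and 8.45% of FPKM. Of the CLC reads, the lysosomal exchanger Clcn7 held 30.7% (28.9 to 32.7) and 25.7% (23.9 to 27.6). Clcn6, of late endosomes, held 14.8% (13.4 to 16.3) and 18.5% (16.9 to 20.3) of them. Of the WNK reads, Wnk1 held 57.3% (55.8 to 58.8) and 54.6% (53.0 to 56.2), with overlapping intervals. Wnk2 held 41.2% (39.6 to 42.7) and 44.4% (42.8 to 46.0). By FPKM, Wnk1 held 69.4% and 67.3%, and Wnk2 28.4% and 31.2%. Of the CLIC reads, Clic3, with 23 and 6 reads, held 0.205% (0.130 to 0.308) and 0.0411% (0.0151 to 0.0895).

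**Figure D4:**
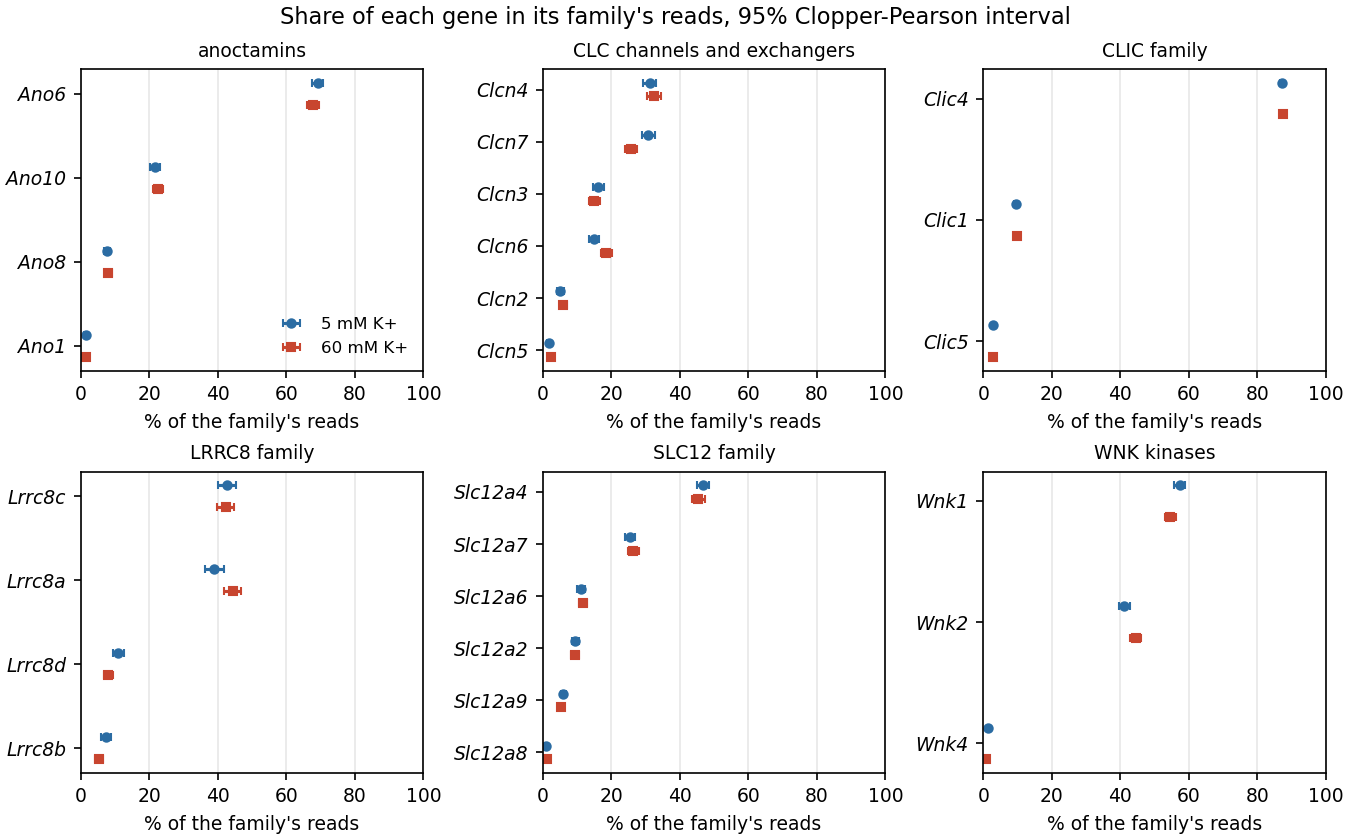
Share of each gene in the reads of its family (horizontal axis, percent) in the 5K and the 60K library, with 95% Clopper-Pearson intervals. Ano6 and Clic4 hold most of their families' reads in both libraries, and the Lrrc8a intervals (around 39.0% and 44.3%) narrowly miss overlapping.

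The wider set of pathway genes, on 9 lists, held 75 genes besides these 10, of which 47 had at least 10 reads. Their median log2(fold-change) was -0.04. None lay above 1, against 5.54% of all genes with at least 10 reads, and 3 lay below -1, against 5.86%. Above 0.5 lay 2, against 14.8%, and below -0.5 lay 5, against 15.9%. The interval lay above 0 for 7, against 25.0%, and below 0 for 8, against 20.3%. Each of these 6 counts was near or under the share over all genes.

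Counted by list, with the 10 genes included, the lists held few genes each and are set beside the same shares, 25.0% above 0 and 20.3% below (41.4% and 21.4% with at least 500 reads). The CLIC family had 3 of 4 measured genes with an interval above 0 and 1 below. The LRRC8 family had 2 of 4 above 0 and none below. The WNK-SPAK regulators had 3 of 12 above 0, the share over all genes, and 1 below. Those above were Cul3, part of the ligase that degrades WNK kinases, at 0.46, Sgk1 at 0.35 and Wnk2 at 0.13. The anion exchanger list, which also holds the sodium-bicarbonate cotransporters Slc4a4 and Slc4a7, had 5 of 11 below 0 and none above. Those below were Slc4a2 at -0.15, Slc4a3 at -0.11, Slc4a7 at -0.19, Slc4a4 at -0.41 and Slc26a1 at -2.48. The SLC12 family had 1 of 7 and the anoctamins 1 of 5 below 0, with none above. The CLC family had 1 of 7 above and 1 below, and the bestrophin and CLCA list, with 2 genes measured, and the other anion channels, with 4, had none in either direction.

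The genes past 0.5 were mostly of few reads. Clic1, of the same family as Clic4, had 1078 and 1423 reads, at 0.50 (0.39 to 0.62). Slc12a8 had 28 and 37 reads, at 0.50 (-0.24 to 1.27). Wnk4, a kinase of kidney tubules, had 56 and 33 reads, at -0.66 (-1.33 to -0.02). Clic3 had 23 and 6 reads, at -1.84 (-3.42 to -0.50). The anion exchangers Slc26a1, with 12 and 2 reads, Slc26a3, with 12 and 6, and Slc26a8, with 13 and 5, were at -2.48, -0.90 and -1.28. Of these exchangers, Slc26a3 and Slc26a8 had intervals that included 0.

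Ano6, Clic4 and Slc12a4 had the highest FPKM of their lists. On the other lists, Clcn4, an endosomal exchanger, led the CLC genes at 34.0 FPKM in the 5K library and 30.7 in the 60K library. Lrrc8c led the LRRC8 genes at 24.1 and 26.7 FPKM, and its log2(fold-change) from 555 and 662 reads was 0.36 (0.19 to 0.52). Sgk1, a kinase that acts on the WNK pathway, led its list at 166 and 183 FPKM. Slc4a3, a chloride-bicarbonate exchanger, led the exchangers at 181 and 146 FPKM. Ttyh3, with 256 and 218 reads, and Best1, at 1.46 and 1.10 FPKM, led the remaining lists. SPAK (Stk39), at -0.12, and OSR1 (Oxsr1), at -0.06, had intervals that included 0. Cftr and Slc12a1, which serve epithelia, were at 0 reads in both libraries.

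Markers of other tissue also differed between the libraries. Their medians are TMM scaled, while their summed FPKM is scaled by total counts. Exocrine pancreas genes, from the gland next to these vessels, had 136 reads in the 5K library and 504 in the 60K library, with 8 of 9 above 1 and a summed FPKM of 11.7 and 48.2. Ano1 and Slc12a2, which pancreatic cells also use, were at -0.03 and -0.14 beside them. Adipocyte markers had a median of -0.82 over 9 genes, and summed FPKM of 209 and 154. Markers of the interstitial cells of Cajal, which carry much Ano1 in the gut, summed to 3.29 and 3.51 FPKM, with Kit, their defining marker, at 6 and 7 reads. The median of these markers was 0.42, all 4 were higher in the 60K library, and 1 had an interval above 0. Of 8 intestinal epithelial markers 5 were at 0 in both libraries, Epcam among them. The 2 with at least 10 reads were Lgals4 and Vil1. Lgals4 had 204 and 118 reads, at -0.69 (-1.03 to -0.35), and Vil1 7 and 10, at 0.62 (-0.93 to 2.25). Nerve and Schwann cell markers had a median of -0.02 and summed FPKM of 140 and 118. Macrophage markers had a median of -0.20, with summed FPKM of 43.0 and 36.1. Red blood cell markers had a median of -0.64, and sums of 166 and 91.8 FPKM. Mesothelial markers had 23 and 24 reads and lymphocyte markers 9 and 10. What part any of these had in the values of the 10 genes was not tested.

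**Figure D5:**
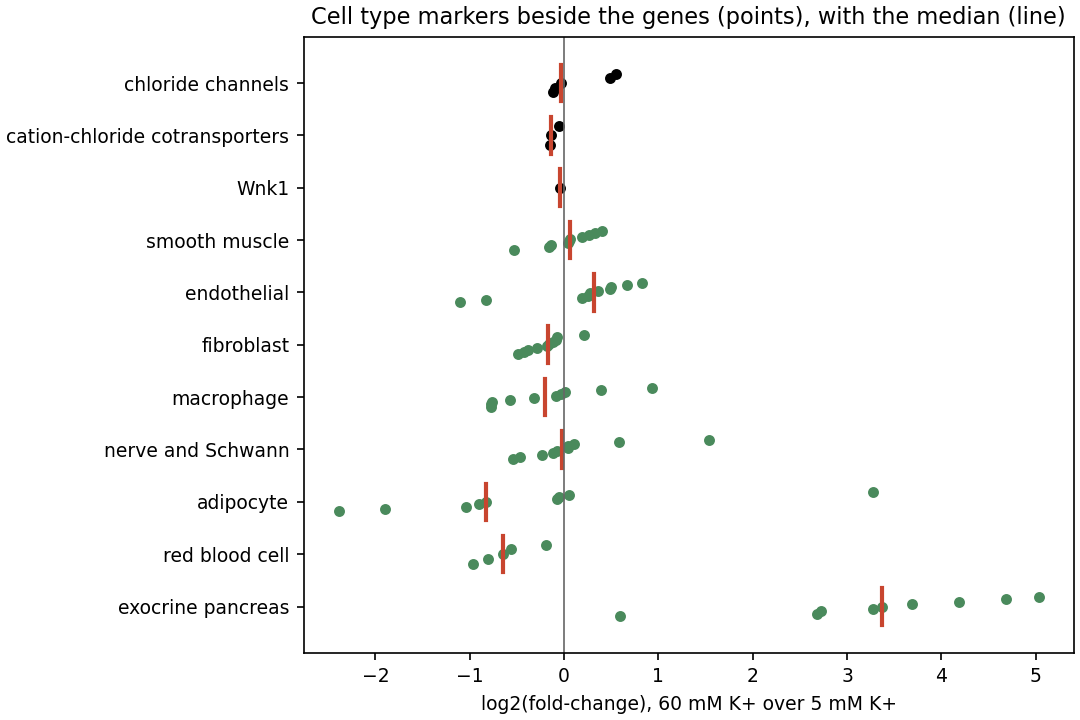
log2(fold-change) (horizontal axis, 60K over 5K) of the markers of each cell type as points, with the median as a line, beside the genes described here. Exocrine pancreas markers lie far to the right, with a median of 3.37, while the smooth muscle median is 0.06 and the fibroblast median -0.17.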

How the data were processed

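Mesenteric artery RNA was measured by RNA-seq in 2 libraries, 1 from each condition. The authors deposited raw read counts per gene and FPKM values from the same reads. The submitters' processing notes name TopHat2 2.0.12, HTSeq 0.6.1 and edgeR 3.0.8 and the builds mm8 and mm9, with no roles. Whether counting used strand is not given in the sources used here. Reads divided by FPKM were 1.08 times larger in 60K than in 5K, whatever the gene, as were total reads, which shows FPKM to be total-count scaled.

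Reads were scaled by TMM factors (1.07 for 5K, 0.930 for 60K) from edgeR 4.0.16 in R 4.3.3, over all genes. A count of 0 was set to 0.5 reads, a minimum of 10 reads in both libraries together was used, and 95% Clopper-Pearson intervals came from the 60K share of each gene's reads. A level is limited by 3 counts, or 0.266 and 0.286 reads per 1000000 in the 5K and 60K libraries. Reads without molecular identifiers are not independent molecules. Symbols were matched through GENCODE vM1, and 12 through RefSeq synonyms. The script was tested on simulated data.

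The 10 genes and all lists were chosen with earlier results of these data known. Named are the 10 genes, pathway genes with at least 10 reads and a log2(fold-change) past 0.5 in either direction, and the gene of highest FPKM on each list. Clcn6, Clcn7, Ano10, Lrrc8d, Cul3, Wnk2, Slc4a2, Slc4a4, Slc4a7, Stk39, Oxsr1, Cftr, Slc12a1, Cdh5, Kdr, Kit, Epcam, Lgals4 and Vil1 were named outside the rule, after their values were seen. Alternatives were scaling by total counts, by the upper quartile or by DESeq2 1.42.0, FPKM with pseudocounts of 0.1 and 1, and minimums of 50 reads or none. FPKM by other lengths and a minimum of 500 reads were added after the data were seen. Python 3.11.15 with matplotlib 3.10.9 drew the figures.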

Additional observations from a re-analysis of the deposited data

How the results depend on the processing

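No paired analysis was possible because there was 1 library in each condition, and for the same reason no replicate could be left out. The sign of log2(fold-change) was kept for all 9 genes with at least 10 reads under the 3 other scalings and both FPKM pseudocounts. Of these 45 values 19 lay outside the counting interval of the TMM value. With total counts the median of the 9 genes was -0.26, 0 lay above 0.5 and 6 had an interval below 0, while of the other pathway genes 0 lay above 0.5, 9 below -0.5, 4 had an interval above 0 and 19 below 0. With upper-quartile and median-of-ratios scaling 0 of the other pathway genes lay above 0.5. On deposited FPKM with a pseudocount of 0.1 the median was -0.26, 0 of the 9 genes lay above 0.5, and of the other pathway genes 0 lay above 0.5 and 9 below -0.5. With a pseudocount of 1 the median was -0.25 and 0 of the 9 genes lay above 0.5, with 1 other pathway gene below -1, 0 above 0.5 and 3 below -0.5. FPKM gave no counting interval. With at least 50 reads, 0 other pathway genes lay below -1 and 1 below -0.5. With no minimum, Best3 entered, so 1 of the 10 genes lay above 1 and 2 above 0.5, and of the other pathway genes 1 lay above 1, 5 below -1, 4 above 0.5 and 10 below -0.5. With at least 500 reads, the share of all genes below -1 went from 5.86% to 0.122%, below -0.5 from 15.9% to 3.18%, and with an interval above 0 from 25.0% to 41.4%, and Lrrc8a was still the 1 gene of the 10 above 0.5. The total-count shift follows from its construction, and values from deposited FPKM carry it too, because FPKM is total-count scaled. The cause of the other moves was not tested. Shares within families also moved between FPKM and reads. In the 5K library Slc12a4 held 55.6% of the SLC12 family's FPKM but 46.7% of its reads. Depth limits Ano1 and Best3 most.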
